A study of Mus musculus with 9 samples.

Results

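The cell proliferation genes are 40 genes that dividing cells switch on to copy their DNA and to pass through mitosis. They were taken by name, as a list of S-phase and mitosis genes with no threshold on a measured value, and each array probe was assigned to a gene through its RefSeq transcript. The 40 genes had 57 probes, of 56605 distinct probes on the array, and 39 of the genes could be measured in the table of 16843 genes. In these lungs 39 of 39 measured members read highest on the same array, 9-month cre replicate 3, which was the highest array for 17% of all genes. In the early lungs, 35 of 39 were higher in every 3-month cre lung than in every control lung, against 19.6% of all genes. No member passed the test across all genes when all 9 arrays were fitted together.

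Whole lungs came from mice with both Terf1 alleles floxed (TRF1flox/flox). Terf1 encodes TRF1, a protein that coats telomere repeats. Control lungs (n = 3) were from littermates lacking cre, aged 11 months and given tamoxifen for 9 months. Lungs of SPC-cre TRF1flox/flox mice were taken at an age of 5 months after 3 months of tamoxifen (3-month cre, n = 3) or at 11 months after 9 months of tamoxifen (9-month cre, n = 3). All mice, controls included, carried the floxed alleles and received 250 mg/kg tamoxifen a week starting at 8 weeks of age. The SPC promoter is active in alveolar type 2 cells, so most cells of a whole lung are outside the reach of the transgene. Genotype, age and length of treatment differ together between the 3-month cre and control lungs and cannot be told apart there. In bulk RNA, fewer cells of a type and less RNA per cell cannot be told apart either.

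A cell that enters the cycle first licenses its replication origins with the MCM helicase, then makes nucleotides and replicates its DNA under cyclin E and cyclin A kinases. The mitotic genes follow: cyclin B and CDK1 start mitosis, kinetochore and spindle proteins attach and move the chromosomes, and the anaphase-promoting complex ends it by having cyclins degraded. E2F factors are known to switch on many S-phase genes, and the DREAM and MYB-MuvB complexes with FOXM1 act through CHR and CCAAT elements in many mitotic promoters. In the adult lung most cells are quiescent, with slow renewal by alveolar type 2 cells and some division of macrophages, endothelium and other cells.

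Promoters of the members were searched for 3 motifs of cell cycle genes. RefSeq promoters (GRCm38.p6, 250 bases before to 50 after the start of transcription) matched 32 of the 40 genes by symbol, with 33 promoters because Mcm7 has 2. The CHR motif, TTTGAA or TTCGAA on either strand, was in 16 of 20 promoters of mitotic members and in 2 of 13 of S-phase members, against 19.2% of all 32851 promoters in the table. CCAAT, on either strand, was in 17 of 20 and 9 of 13, against 37.4% of all promoters. An E2F motif, one of TTTCCCGC, TTTCGCGC, TTTGCCGC or TTTGGCGC on either strand, was in 5 of 13 S-phase promoters and absent from the other 8, in 1 of 20 mitotic promoters (Cdk1), and in 2.26% of all promoters. The TTTGGCGC and TTTCGCGC words can overlap each other when they lie on opposite strands. A match is a stretch of letters and does not show that a factor binds.

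Of the S-phase genes, Mcm6 is printed because it has the most E2F matches of any member and Mcm5 because its E2F matches overlap, beside Pcna, which has CCAAT alone. Of the mitotic genes, Cdk1, Kif11 and Nusap1 are shown because they were called at 3 months once 9-month cre replicate 3 was left out, Nusap1 having no match to any of the motifs, and Top2a for its 4 CHR matches. Their positions are Mcm5 at chr8:75109259-75109558 on the plus strand, Mcm6 at chr1:128359656-128359955 on the minus strand, Pcna at chr2:132253131-132253430 on the minus strand, Cdk1 at chr10:69352863-69353162 on the minus strand, Kif11 at chr19:37376132-37376431 on the plus strand, Top2a at chr11:99024140-99024439 on the minus strand and Nusap1 at chr2:119618048-119618347 on the plus strand. Each is written 5′ to 3′ on the gene's own strand, with CHR, CCAAT and E2F matches in capitals.
Mcm5: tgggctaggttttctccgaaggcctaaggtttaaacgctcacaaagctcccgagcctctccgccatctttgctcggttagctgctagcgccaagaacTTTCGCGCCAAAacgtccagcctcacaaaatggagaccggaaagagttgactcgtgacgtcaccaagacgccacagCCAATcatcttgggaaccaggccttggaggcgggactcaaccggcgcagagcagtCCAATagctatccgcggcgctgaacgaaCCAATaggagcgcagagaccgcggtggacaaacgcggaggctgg
Mcm6: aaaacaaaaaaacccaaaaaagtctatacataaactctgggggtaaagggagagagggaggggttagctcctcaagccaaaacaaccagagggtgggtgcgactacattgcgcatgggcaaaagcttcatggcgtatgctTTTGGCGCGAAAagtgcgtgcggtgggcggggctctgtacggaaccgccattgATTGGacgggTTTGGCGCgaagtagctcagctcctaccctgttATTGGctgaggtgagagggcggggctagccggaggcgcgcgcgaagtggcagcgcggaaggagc
Pcna: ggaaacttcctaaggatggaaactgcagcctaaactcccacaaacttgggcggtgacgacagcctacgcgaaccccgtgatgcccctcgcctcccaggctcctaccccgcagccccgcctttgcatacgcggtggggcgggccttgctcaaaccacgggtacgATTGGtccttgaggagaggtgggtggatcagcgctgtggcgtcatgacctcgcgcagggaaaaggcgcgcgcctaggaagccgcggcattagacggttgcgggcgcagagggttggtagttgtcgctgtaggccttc
Cdk1: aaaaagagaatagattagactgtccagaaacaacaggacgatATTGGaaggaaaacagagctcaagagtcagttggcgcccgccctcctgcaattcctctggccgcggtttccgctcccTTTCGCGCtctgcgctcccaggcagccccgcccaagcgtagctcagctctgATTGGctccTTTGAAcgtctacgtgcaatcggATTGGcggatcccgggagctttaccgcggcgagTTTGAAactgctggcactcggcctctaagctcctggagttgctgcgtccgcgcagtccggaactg
Kif11: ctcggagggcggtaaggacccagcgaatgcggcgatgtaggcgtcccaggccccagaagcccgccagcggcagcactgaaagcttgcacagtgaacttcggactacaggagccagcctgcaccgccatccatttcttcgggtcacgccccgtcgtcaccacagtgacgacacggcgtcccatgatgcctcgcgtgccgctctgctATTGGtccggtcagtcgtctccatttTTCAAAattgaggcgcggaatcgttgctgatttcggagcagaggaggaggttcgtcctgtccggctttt
Top2a: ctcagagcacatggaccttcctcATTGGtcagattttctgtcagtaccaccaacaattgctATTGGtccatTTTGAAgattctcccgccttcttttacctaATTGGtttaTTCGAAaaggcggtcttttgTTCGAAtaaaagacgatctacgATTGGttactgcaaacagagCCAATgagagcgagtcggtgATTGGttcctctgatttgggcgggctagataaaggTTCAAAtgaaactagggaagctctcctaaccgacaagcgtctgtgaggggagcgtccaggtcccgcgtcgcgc
Nusap1: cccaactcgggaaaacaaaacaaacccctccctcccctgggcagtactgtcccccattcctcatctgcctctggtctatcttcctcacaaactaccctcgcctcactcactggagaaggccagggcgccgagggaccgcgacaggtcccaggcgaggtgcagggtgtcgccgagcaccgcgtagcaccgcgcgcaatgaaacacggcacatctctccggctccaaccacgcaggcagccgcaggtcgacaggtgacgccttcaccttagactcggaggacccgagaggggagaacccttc

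In Cdk1 the 2 CHR matches begin 71 and 15 bases before the start site, and each follows a CCAAT box on the other strand that begins 80 or 48 bases before the start site. Its E2F match begins 131 bases before the start. In Kif11, a kinesin that pushes the spindle poles apart, the CCAAT and CHR matches begin 45 and 19 bases before the start. Mcm6 has 3 E2F matches, beginning 110, 106 and 47 bases before the start, of which the first pair overlap. Bub1 and Cenpf, which encode kinetochore proteins, have 1 CHR match each that begins 14 and 2 bases after the start.

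The arrays bear on all values that follow. Signal was scaled to the 75th percentile of probes, which ranged from 1347 to 2002 intensity units, with a local background of 28 to 35 units and no saturated spot. The log2 level of a gene is given relative to that percentile, so 0 is the 75th percentile of its array. Of the 39 measured members, 38 were well above background on all 9 arrays and Kif2c on 7. Ccne2, a second cyclin E, had 1 probe, which was well above background on 2 arrays, and was not tested. Slide 1 held the 3 controls and 1 of the 3-month cre arrays, and slide 2 held the other 2 and all 3 of the 9-month cre arrays. From Xist and Y-linked probes all 3 controls read as male, as did 3-month cre replicate 2 and 9-month cre replicate 1, and the other 4 mice as female. Terf1 itself differed from control by -0.55 ± 0.19 (SE) in 3-month cre and by -0.52 ± 0.19 in 9-month cre lungs on the log2 scale and was not called (limma, adjusted p = 0.19 and 0.131). Sftpc, the surfactant gene of alveolar type 2 cells, had a mean log2 level of 8.09, 8.22 and 8.42 in the 3 groups.

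Replicate 3 of the 9-month cre group stood apart from its group. The median member lay 2.21 above the control mean there on the log2 scale, a 4.63-fold difference, against 0.33 and 0.01 in replicates 1 and 2. The 3 control arrays were at 0.17, 0.11 and -0.24 and the 3 arrays of 3-month cre at 0.73, 0.86 and 0.53. That array was the highest of the 9 for 39 of 39 members and for 17% of all genes. Its distance to the next highest array ranged from 0.07 for Pcna to 2.03 for Foxm1, with a median of 1.18. The median SD of a member within the 9-month cre group was therefore 1.20, against 0.24 in controls and 0.23 in 3-month cre lungs, where the median gene of the whole array had 0.22, 0.16 and 0.15. The array was singled out after its values were seen, and the main values are given with and without it. Control replicate 3 was the lowest of the 9 arrays for 26 of 39 members, which raises differences from the control mean. The share of all genes lowest in that control was not counted.

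**Figure D1:**
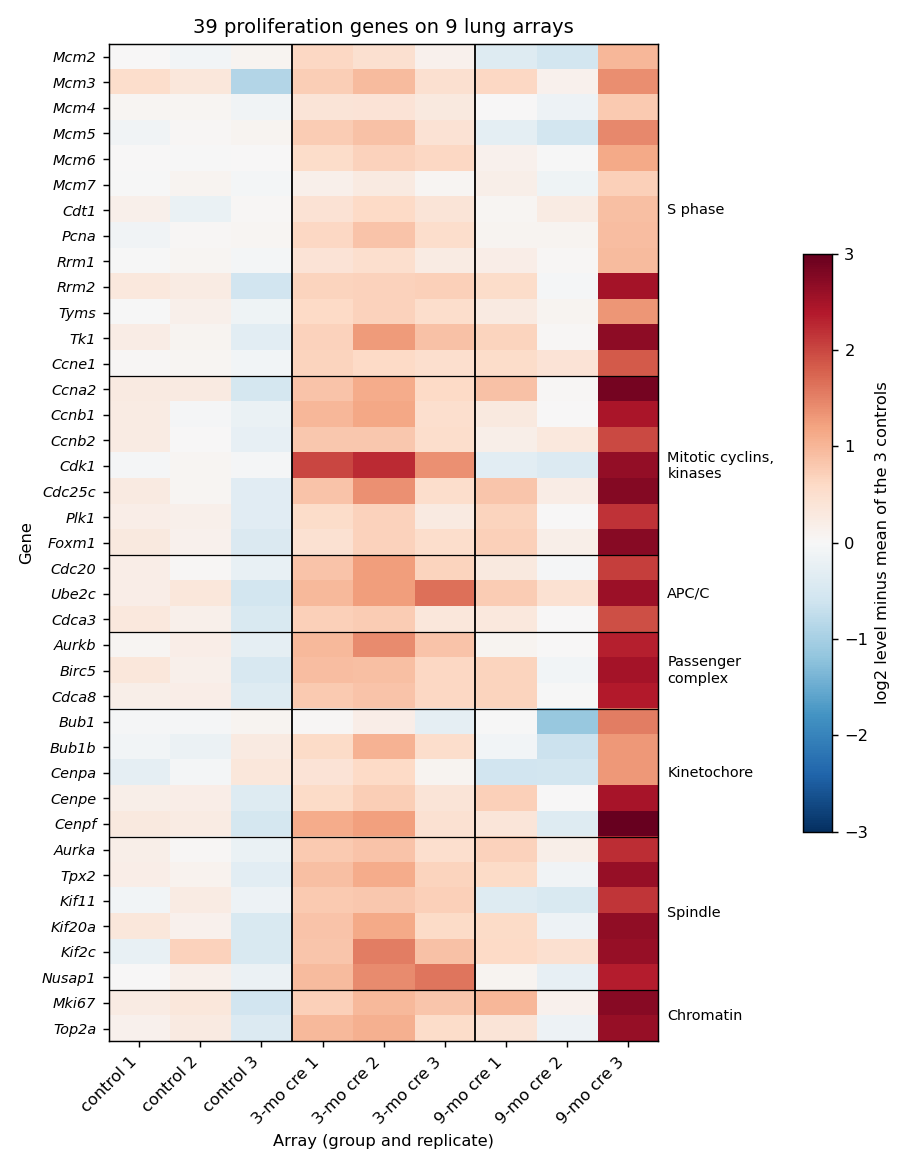
Log2 level of each of the 39 measured proliferation genes (rows, grouped by role) on each of the 9 arrays (columns), minus the mean of the 3 controls; red is higher and blue lower. The 9-month cre replicate 3 column is red throughout, with a median of 2.21, the 3-month cre columns have medians of 0.53 to 0.86, and 9-month cre replicates 1 and 2 have medians of 0.33 and 0.01.

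Late lungs were compared with controls of the same age and treatment. With all 9 arrays, 39 of 39 members had a mean above control in 9-month cre lungs, with a median log2 difference of 0.82, where 52.8% of all genes were above control and their median was 0.02. None had risen or fallen (limma, Benjamini-Hochberg adjusted p under 0.05 over all genes), where 3.65% of all genes rose and 2.81% fell. The adjusted p of the members ran from 0.117 to 0.974. At an unadjusted p under 0.05 there were 3 members, where 14.8% of all genes were higher at that level, and limma with an intensity trend and robust variances also called 0. The groups did not overlap for 3 members, Pcna, Ccne1 and Ube2c, against 17.5% of all genes. No slide held arrays of both groups, so slide and group could be separated only through the 3-month cre arrays. With slide as a block the median was 0.83 and 0 members were called, where 0 of all genes were called. Median differences by role were 0.40 for S phase and 0.98 for the 26 mitotic members, and 0.12 and 0.22 without replicate 3.

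Leaving out replicate 3 lowered the 9-month median to 0.17, with 29 of 39 members above control. A lower mean was fixed by construction, as every member read highest on that array. Ccne1, which encodes the cyclin that drives entry into S phase, was then the 1 member called, where 3.84% of all genes rose. It differed from control by 0.47 ± 0.11 (SE; adjusted p = 0.0475), against 0.93 with all 9 arrays. With slide as a block or sex as a covariate as well, both added after seeing the data, 0 members were called and the medians were 0.19 and 0.32. Over all genes 0 and 474 were called in these fits. Replicate 2 lay within the range of the controls for 24 of 39 members, below all controls for 10 and above them for 5, where the shares of all genes were 32.2%, 32.6% and 35.3%. Replicate 1 was above all controls for 26 members, within their range for 8 and below it for 5, against 40.6%, 26.5% and 32.8% of all genes. The 10 members below all controls in replicate 2 are thus a smaller share, 25.6%, than that of all genes.

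The early lungs were closer to each other than the late ones. Of 39 members, 38 had a mean above control in 3-month cre lungs, with a median log2 difference of 0.72 (all genes: 57.6% above, median 0.05). All 3 arrays of 3-month cre exceeded all 3 controls for 35 members, against 19.6% of all genes. The 4 members that overlapped were Mcm3, Mcm7, Bub1 and Cenpa. None was called in the fit of 9 arrays (limma, adjusted p from 0.173 to 0.994), where 0.368% of genes rose and 0.0831% fell. Here too 4 members had an unadjusted p under 0.05, where 11.6% of all genes were higher at that level, and the fit with an intensity trend called 0.

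All groups share 1 estimate of spread for each gene, so the spread of 9-month cre replicate 3 entered this comparison too. The median SE of a member was 0.52, against 0.17 for the median gene. Without that array it was 0.21, the differences between 3-month cre and control were the same by construction, and 8 members had risen, where 1.42% of all genes rose. They were Mcm6, Pcna, Tyms, Ccne1, Cdk1, Aurkb, Kif11 and Nusap1, with adjusted p from 0.0204 to 0.0476. The array left out was singled out because the members stood apart on it, so the smaller SE follows in part from that choice. A fit of the 3-month cre and control arrays alone called 7 of these 8, all but Tyms, where 1.78% of all genes rose. With slide as a block and without that array, an alternative chosen after seeing the data, 0 members were called and the median was 0.73. Over all genes 2 were called in that fit. With animal sex as a covariate and without that array, also added later, 0 members were called and the median was 0.95, where 3 of all genes were called.

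Within slide 1, the 1 lung of 3-month cre exceeded the mean of the 3 controls by a median of 0.73. That cre lung read as female. The animals read as male allow a comparison within 1 sex, but both male cre lungs were on slide 2 and all controls on slide 1. No cre lung thus matched the controls in both slide and sex. The male 3-month cre lung was above all 3 controls, all male, for 39 of 39 members, and the male 9-month cre lung for 26 of 39, where that lung (replicate 1) was above all controls for 40.6% of all genes. The share of all genes for the male 3-month cre lung was 41.7%. The parts of slide and sex in these differences were not tested beyond these values.

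Between the cre groups, the direction turned on the same array. With all 9 arrays 23 of 39 members were higher in 9-month than in 3-month cre lungs, with a median log2 difference of 0.08 (all genes: 46.9% higher, median -0.03). None was called (limma), where 1.79% of genes rose and 3.2% fell, 0 members had an unadjusted p under 0.05, and the fit with an intensity trend called 0. Without replicate 3 the median was -0.54, 0 of 39 members were higher at 9 months, and 10 had fallen, where 3.98% of all genes fell. These were Mcm2, Mcm5, Mcm6, Pcna, Cdk1, Aurkb, Bub1b, Cenpa, Kif11 and Nusap1. Replicate 3 was singled out because the members were highest on it, so leaving it out lowers every 9-month mean by construction. The median SE of a member went from 0.52 to 0.24, and only 2 arrays remained at 9 months. With slide as a block as well 0 had fallen (median -0.54), where 13 genes in all were called. With sex as a covariate as well 7 had fallen (median -0.59), where 1.18% of all genes fell. Both fits were added after seeing the data. Every 3-month cre lung was above 9-month cre replicates 1 and 2 for 25 of 39 members, against 27.1% of all genes, and above these and all controls for 24, against 8.7%. Within slide 2, which held 2 of the 3-month and all 9-month cre arrays, the median with replicate 3 was 0.09. Age and length of treatment differ together between the cre groups and cannot be told apart.

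**Figure D2:**
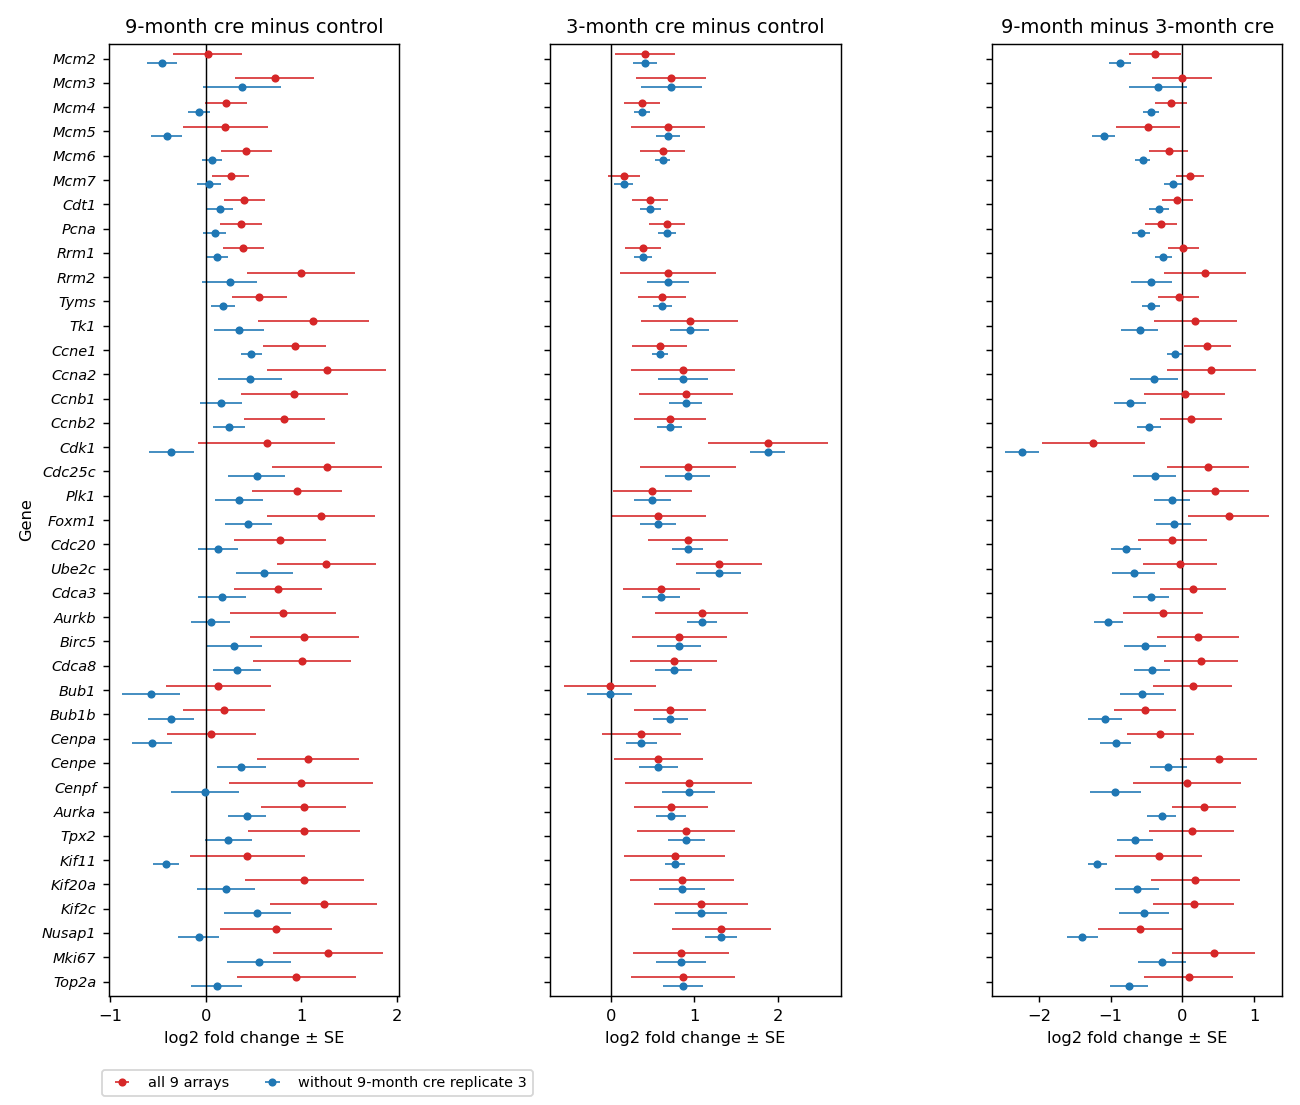
Log2 fold change ± SE (limma) of each of the 39 measured members in the 3 comparisons, with all 9 arrays (red) and without 9-month cre replicate 3 (blue). In the middle panel the points are the same and the median SE goes from 0.52 to 0.21; in the right panel 23 of 39 red points and 0 of 39 blue points lie above 0.

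In 9-month cre replicate 3 the median of the 13 measured S-phase members stood less far above control than that of the mitotic members, and their 3-month differences ran from 0.16 to 0.94. Their median log2 difference from the control mean was 0.61, 0.68 and 0.49 on the 3-month cre arrays, and 0.18, 0.03 and 1.15 on the 9-month cre arrays. Mcm2 had log2 levels of -0.29, -0.38 and -0.22 in the controls, 0.31, 0.19 and -0.17 in the 3-month cre lungs and -0.68, -0.84 and 0.69 in the 9-month cre lungs. For Mcm5 the control arrays read 0.05, 0.19 and 0.25, the 3-month cre arrays 0.91, 1.03 and 0.59 and the 9-month cre arrays -0.12, -0.38 and 1.60. Both encode subunits of the MCM helicase, which unwinds DNA at replication forks, and in both 9-month cre replicates 1 and 2 were the lowest of the 9 arrays. Levels of Mcm6 were 2.09, 2.06 and 2.08 in control lungs, 2.63, 2.77 and 2.69 at 3 months and 2.21, 2.08 and 3.23 at 9 months. A further MCM subunit, Mcm6 differed between 3-month cre and control by 0.62 ± 0.27 (SE; adjusted p = 0.258), and by 0.62 ± 0.09 (SE; adjusted p = 0.0302) without 9-month cre replicate 3 (limma).

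Of the other MCM subunits, Mcm4 and Mcm7 had smaller differences at 3 months, of 0.37 and 0.16. Mcm3 had 3 probes, and its strongest probe read 2.47, 2.27 and 1.05 in controls. The other Mcm3 probes read -1.88, -1.87 and -1.87 in controls, and 1.66, 1.68 and 1.34, so that the low value of control replicate 3 was absent from the first and smaller on the second. The 3-month difference was 0.72 on the strongest probe and 0.50 and 0.24 on the others, and the 9-month difference was 0.72 on the first (0.38 without replicate 3) and 0.07 and 0.20 on the others. Cdt1, which loads the helicase onto origins, differed by 0.47 at 3 months and 0.40 at 9 months, or 0.15 without replicate 3.

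The Pcna probe read 2.83, 2.97 and 2.98 in controls, 3.55, 3.77 and 3.46 in 3-month cre lungs and 3.02, 3.02 and 3.84 in 9-month cre lungs. Pcna encodes the sliding clamp that holds DNA polymerase on its template. The 3-month cre lungs stood clear of the controls and of 9-month cre replicates 1 and 2, and replicate 3 was 0.07 above the highest of them, the smallest such gap of the 39 members. The difference between 3-month cre and control was 0.67 ± 0.22 (SE; adjusted p = 0.173), or 1.59-fold, and 0.67 ± 0.11 (SE; adjusted p = 0.0419) without 9-month cre replicate 3 (limma).

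The enzymes of nucleotide supply read higher in 3-month cre lungs than in controls and were spread widely at 9 months. Rrm2 had log2 levels of -0.06, -0.14 and -0.95 in the controls, 0.28, 0.31 and 0.33 in the 3-month cre lungs and 0.17, -0.42 and 2.11 in the 9-month cre lungs. Levels of Tk1 were -0.38, -0.52 and -0.91 in control lungs, 0.10, 0.66 and 0.27 at 3 months and 0.07, -0.57 and 2.08 at 9 months. Rrm2 is the cell cycle-regulated subunit of ribonucleotide reductase and Tk1 the thymidine kinase of S phase. In both, 9-month cre replicate 3 was 1.78 and 1.42 above the next highest array, against 0.36 to 0.57 for the 6 helicase genes, and replicate 2 lay among the controls. For Tyms the control arrays read 0.28, 0.46 and 0.17, the 3-month cre arrays 0.91, 1.00 and 0.84 and the 9-month cre arrays 0.58, 0.39 and 1.63. Tyms, which makes thymidylate, differed at 3 months by 0.61 and Rrm1, the large reductase subunit, by 0.38. The Ccne1 probe read -1.15, -1.14 and -1.29 in controls, -0.53, -0.60 and -0.69 in 3-month cre lungs and -0.65, -0.79 and 0.65 in 9-month cre lungs. All 6 cre lungs were above all 3 controls for Ccne1.

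Among mitotic cyclins and their kinases, Cdk1 had the largest 3-month difference of the 39 members. For Cdk1 the control arrays read -3.91, -3.84 and -3.91, the 3-month cre arrays -1.88, -1.64 and -2.51 and the 9-month cre arrays -4.20, -4.29 and -1.26. Cdk1 encodes the kinase that drives mitosis. Its 3 control arrays lay within 0.07 of each other, the 3-month cre lungs 2.01, 2.25 and 1.37 above their mean, and 9-month cre replicates 1 and 2 below all controls. The difference between 3-month cre and control was 1.88 ± 0.72 (SE; adjusted p = 0.216), 3.67-fold, and 1.88 ± 0.21 (SE; adjusted p = 0.0204) without 9-month cre replicate 3. Between 9-month and 3-month cre it was -1.24 ± 0.72 (SE; adjusted p = 0.288) with all arrays and -2.24 ± 0.23 (SE; adjusted p = 0.0175) without that array (limma).

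Levels of Ccnb1 were -1.70, -1.97 and -2.14 in control lungs, -0.93, -0.77 and -1.42 at 3 months and -1.64, -1.92 and 0.52 at 9 months. Ccnb2 had log2 levels of -0.32, -0.56 and -0.80 in the controls, 0.24, 0.25 and -0.04 in the 3-month cre lungs and -0.38, -0.25 and 1.43 in the 9-month cre lungs. The Ccna2 probe read -1.04, -1.02 and -1.83 in controls, -0.43, -0.17 and -0.70 in 3-month cre lungs and -0.42, -1.25 and 1.58 in 9-month cre lungs. These are the B cyclins, which activate CDK1, and cyclin A, which acts from S phase into mitosis. In all 3 the 3-month cre lungs were above every control, and in 9-month cre replicate 3 the level was 1.99 to 2.87 above the control mean. Cdc25c had log2 levels of -4.07, -4.28 and -4.69 in the controls, -3.48, -2.98 and -3.82 in the 3-month cre lungs and -3.50, -4.13 and -1.60 in the 9-month cre lungs. Cdc25c is a phosphatase that activates CDK1, and its 9-month difference was 1.27 ± 0.57 (SE; limma, adjusted p = 0.194), or 0.53 ± 0.30 without replicate 3. Plk1, a kinase of mitotic entry, and Foxm1, a transcription factor of mitotic genes, differed at 3 months by 0.50 and 0.57 and at 9 months by 0.96 and 1.21, or by 0.35 and 0.45 without replicate 3.

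Genes of mitotic exit had similar patterns. For Ube2c the control arrays read -1.29, -1.15 and -2.04, the 3-month cre arrays -0.52, -0.23 and 0.15 and the 9-month cre arrays -0.72, -1.03 and 1.07. Ube2c encodes the ubiquitin-conjugating enzyme of the anaphase-promoting complex. Its 3-month difference was 1.29 ± 0.52 (SE; adjusted p = 0.23) and its 9-month difference 1.26 ± 0.52 (SE; adjusted p = 0.159), with no overlap with controls in either (limma). Without replicate 3 the 9-month difference was 0.61 ± 0.30 (SE). Cdc20 had log2 levels of 0.45, 0.29 and 0.03 in the controls, 1.12, 1.50 and 0.92 in the 3-month cre lungs and 0.55, 0.23 and 2.33 in the 9-month cre lungs. Levels of Cdca3 were -0.72, -0.90 and -1.51 in control lungs, -0.33, -0.27 and -0.71 at 3 months and -0.72, -1.03 and 0.88 at 9 months. Cdc20 activates the complex and Cdca3 is a mitotic entry factor that the complex degrades; 9-month cre replicates 1 and 2 lay near the controls in both.

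The chromosomal passenger complex corrects the attachment of chromosomes to the spindle. Aurkb had log2 levels of -3.13, -2.98 and -3.45 in the controls, -2.20, -1.77 and -2.33 in the 3-month cre lungs and -3.10, -3.17 and -0.85 in the 9-month cre lungs. Aurkb is its kinase, and the 3-month difference was 1.09 ± 0.55 (SE; adjusted p = 0.326), and 1.09 ± 0.18 (SE; adjusted p = 0.0419) without 9-month cre replicate 3 (limma). The 9-month cre replicates 1 and 2 lay within the control range. Levels of Birc5 were 0.73, 0.53 and -0.10 in control lungs, 1.31, 1.30 and 1.00 at 3 months and 1.05, 0.31 and 2.89 at 9 months. The Cdca8 probe read -0.56, -0.55 and -1.13 in controls, 0.04, 0.10 and -0.14 in 3-month cre lungs and -0.07, -0.77 and 1.62 in 9-month cre lungs. Birc5 (survivin) and Cdca8 (borealin) target the kinase to centromeres, and both were higher in every 3-month cre lung than in every control.

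Among the 5 kinetochore genes the 3-month difference ran from -0.01 to 0.93. For Bub1 the control arrays read -2.46, -2.46 and -2.35, the 3-month cre arrays -2.40, -2.22 and -2.69 and the 9-month cre arrays -2.44, -3.56 and -0.88. Bub1 is a kinase of the spindle checkpoint. It was the 1 member whose mean at 3 months was not above control, with a difference of -0.01 ± 0.55 (SE), and its lowest array was 9-month cre replicate 2. Cenpa had log2 levels of -1.52, -1.30 and -0.90 in the controls, -0.83, -0.64 and -1.15 in the 3-month cre lungs and -1.81, -1.80 and 0.07 in the 9-month cre lungs. Cenpa, the centromeric histone H3 variant, overlapped between 3-month cre and control, with control replicate 3 above 3-month cre replicate 3. Its 9-month cre replicates 1 and 2 were the lowest of the 9 arrays.

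Levels of Bub1b were -2.78, -2.87 and -2.42 in control lungs, -2.12, -1.65 and -2.17 at 3 months and -2.78, -3.33 and -1.40 at 9 months. Bub1b (BUBR1) is the checkpoint inhibitor of CDC20. The 3-month lungs were above all controls, and without replicate 3 the difference between 9-month and 3-month cre was -1.07 ± 0.24 (SE; limma, adjusted p = 0.0443). The Cenpe probe read -1.48, -1.44 and -2.03 in controls, -1.09, -0.91 and -1.25 in 3-month cre lungs and -0.93, -1.63 and 0.83 in 9-month cre lungs. Cenpf had log2 levels of -1.82, -1.87 and -2.64 in the controls, -1.01, -0.88 and -1.66 in the 3-month cre lungs and -1.74, -2.49 and 0.89 in the 9-month cre lungs. Cenpe is a kinesin that moves chromosomes to the spindle equator and Cenpf an outer kinetochore protein. Cenpf had the largest excess of 9-month cre replicate 3 over the control mean among the 39 members, 3.00, while replicate 2 was below 2 of 3 controls.

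Of the 6 spindle genes, Nusap1 and Kif11 were called at 3 months without 9-month cre replicate 3. Nusap1 had log2 levels of -2.35, -2.21 and -2.54 in the controls, -1.42, -0.96 and -0.76 in the 3-month cre lungs and -2.27, -2.61 and -0.01 in the 9-month cre lungs. Nusap1 is a microtubule-bundling protein, and its 3-month difference was 1.32 ± 0.59 (SE; adjusted p = 0.274), 2.50-fold, and 1.32 ± 0.19 (SE; adjusted p = 0.0299) without 9-month cre replicate 3 (limma). For Kif11 the control arrays read -4.07, -3.75 and -4.15, the 3-month cre arrays -3.21, -3.18 and -3.29 and the 9-month cre arrays -4.39, -4.44 and -1.84. For Kif11 the 3-month difference was 0.77 ± 0.60 (SE; adjusted p = 0.52), and 0.77 ± 0.12 (SE; adjusted p = 0.0381) without that array, and 9-month cre replicates 1 and 2 were the lowest of the 9 arrays. Levels of Kif20a were -2.04, -2.24 and -2.83 in control lungs, -1.52, -1.24 and -1.79 at 3 months and -1.79, -2.53 and 0.30 at 9 months. The Kif2c probe read -6.23, -5.31 and -6.46 in controls, -5.16, -4.48 and -5.13 in 3-month cre lungs and -5.40, -5.52 and -3.38 in 9-month cre lungs. These kinesins, of cytokinesis and of microtubule depolymerisation, had no overlap between 3-month cre and control. The Kif2c probe was well above background on only 7 of the 9 arrays and read lowest in controls 1 and 3. It can have passed the filter through the cre lungs, so Kif2c, 1 of the 35 members without overlap, is no check on a rise. Aurka and Tpx2, a spindle kinase and its activator, differed at 3 months by 0.72 and 0.90 and at 9 months by 1.02 and 1.03, or by 0.43 and 0.24 without replicate 3.

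Mki67 had log2 levels of 0.78, 0.87 and -0.05 in the controls, 1.25, 1.51 and 1.37 in the 3-month cre lungs and 1.52, 0.65 and 3.26 in the 9-month cre lungs. Mki67 encodes the Ki-67 antigen, which coats mitotic chromosomes and is widely used as a stain for cycling cells. Its 9-month difference was 1.28 ± 0.58 (SE; adjusted p = 0.193), the largest of the 39 members, and 0.55 ± 0.33 (SE) without replicate 3 (limma). Control replicate 3 was low, and 9-month cre replicate 1, at 1.52, was level with the highest 3-month cre lung. Levels of Top2a were -0.82, -0.68 and -1.36 in control lungs, 0.03, 0.12 and -0.41 at 3 months and -0.56, -1.11 and 1.67 at 9 months. Top2a, the topoisomerase that untangles replicated chromosomes, had 3-month differences without overlap and a 9-month difference of 0.95 ± 0.62 (SE; adjusted p = 0.346), or 0.11 ± 0.27 (SE) without replicate 3.

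**Figure D3:**
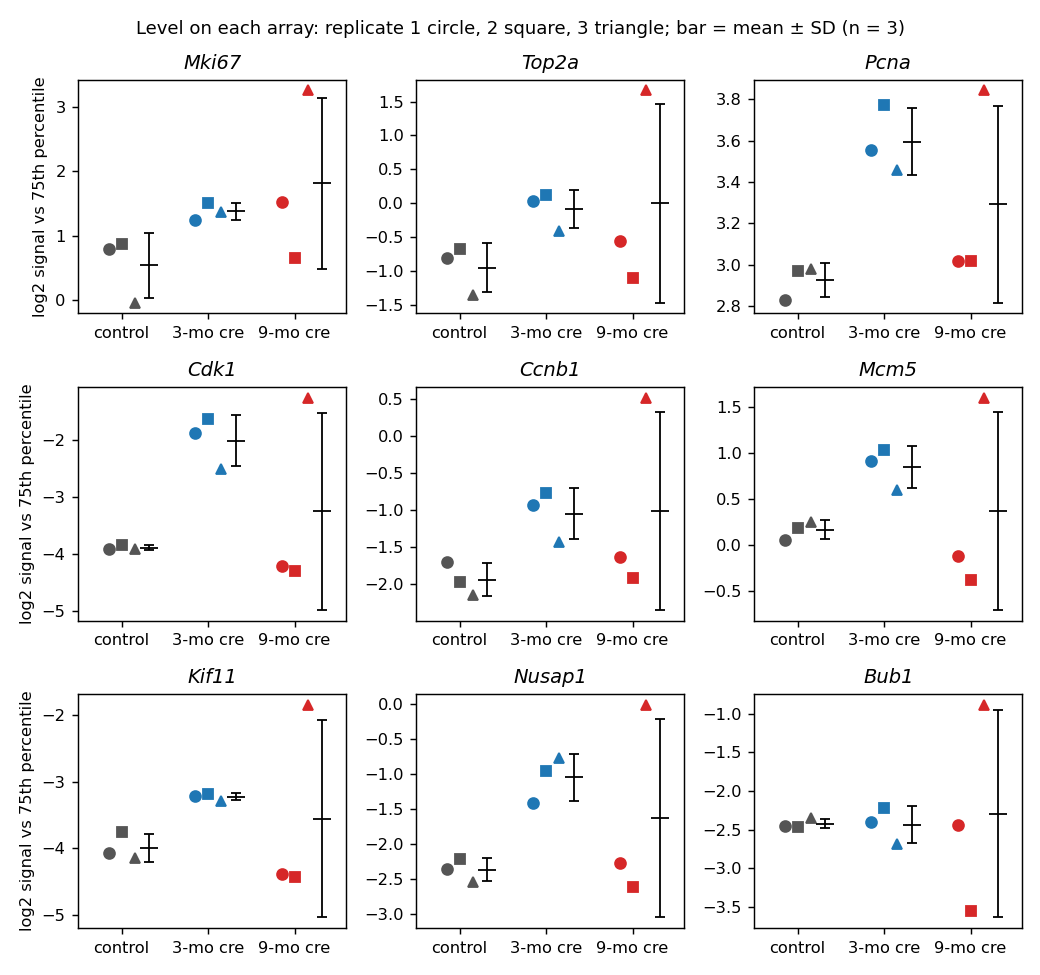
Log2 signal relative to the 75th percentile of the array for 9 members in each lung (circle, square and triangle for replicates 1, 2 and 3), with the mean ± SD of each group (n = 3) as a black bar. In 8 of the 9 panels, all but Bub1, the 3-month cre points lie above the controls, and in all 9 the highest point is 9-month cre replicate 3.

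Other probes of the same genes were read as well. Of 57 probes 51 passed the filter on dim signal, and 12 of those were further probes of members. In 3-month cre lungs 12 of 12 had a mean above control (57.6% of all genes), with all arrays above all controls for 9 (19.6% of all genes). Of the 12, 11 read highest in 9-month cre replicate 3 (17% of all genes). The further probes of Mcm6, Ccnb1 and Cdca8 were well above background on only 4, 5 and 6 of the 9 arrays. A probe dim in controls can pass the filter through the 3-month cre lungs alone, so such probes are no check on a rise.

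Cell cycle genes outside the 40 were read from lists. Of 27 other replication genes (ORC, GINS, polymerase and clamp loader subunits among them) 0 were called at 3 or 9 months (limma). At an unadjusted p under 0.05, 5 were higher at 3 months and 4 at 9 months, where 11.6% and 14.8% of all genes were. None was lower at that level. Their median log2 differences were 0.50 and 0.35 (0.14 at 9 months without replicate 3), and 24 read highest in 9-month cre replicate 3. Without that array Orc1, Gins2 and Rfc4 had risen at 3 months, by 1.64, 1.01 and 0.56 (limma, adjusted p = 0.0486, 0.0444 and 0.0471), where 1.42% of all genes rose. With slide or sex in that fit as well 0 of the 27 were called at 3 months, where 2 and 3 of all genes were. Of 37 other mitotic genes, with medians of 0.66 and 0.74 (0.20 at 9 months without replicate 3), 34 read highest there. At 9 months 1 of them had fallen, where 2.81% of all genes fell. This was Cdc25b, a phosphatase that activates cyclin-dependent kinases, with a difference of -0.61 ± 0.13 (SE; limma, adjusted p = 0.0328). With slide as a block the Cdc25b difference was -0.60 (adjusted p = 0.977) and with sex as a covariate -0.79 (adjusted p = 0.0571), so that the call was lost. Without replicate 3 Spc25, a kinetochore subunit, had risen at 3 months by 1.09 (adjusted p = 0.0419), and with slide or sex in that fit as well its adjusted p was 0.387 and 0.0648. Between the cre groups and without replicate 3, 5 of the replication and 5 of the mitotic genes had fallen from 3 to 9 months, where 3.98% of all genes fell. With slide as a block as well 0 and 0 were called, where 13 of all genes were. With sex as a covariate instead 1 and 6 were called, where 339 of all genes were.

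Of 14 genes of the G1 to S transition, 11 read highest in that array, with medians of 0.17 at 3 months and 0.21 at 9 months, or 0.07 at 9 months without replicate 3. Myc, a transcription factor that promotes growth and cell cycle entry, had risen at 9 months by 0.82 ± 0.16 (SE; limma, adjusted p = 0.0294), and by 0.71 without replicate 3 (adjusted p = 0.0497). The call was lost with slide as a block, at 1.22 (adjusted p = 0.923), and with sex as a covariate, at 0.82 (adjusted p = 0.103). All 6 cre lungs were above all controls for Myc, at -0.48, -0.79 and -0.96 at 3 months and -0.53, -0.83 and -0.35 at 9 months, against -1.29, -1.43 and -1.45. Of 8 subunits of the DREAM and MuvB complexes, 0 were called in either comparison (limma). In each 1 was higher at an unadjusted p under 0.05, where 11.6% of all genes were at 3 months and 14.8% at 9 months. Of these, Lin52 had the largest difference at 9 months, 0.88 ± 0.49 (SE), and Mybl2 followed with 0.59 ± 0.29, or 0.23 without replicate 3.

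Inhibitors of cyclin-dependent kinases read highest in 9-month cre replicate 3 for 1 gene of 7, or 14.3%, a share near the 17% of all genes. Cdkn1a (p21), which arrests the cycle, had risen at 9 months by 2.08 ± 0.32 (SE; limma, adjusted p = 0.0164). This call was also lost with slide as a block, at 2.07 (adjusted p = 0.966), and with sex as a covariate, at 2.34 (adjusted p = 0.0571). Without replicate 3 the difference was 2.36 (limma, adjusted p = 0.0147). With slide in that fit as well its adjusted p was 0.547, and with sex 0.0337. Cdkn1a read 0.43, 0.20 and 1.13 in controls, 1.17, 1.09 and 1.27 at 3 months and 3.28, 2.61 and 2.11 at 9 months. The members had medians of 0.33, 0.01 and 2.21 in these 9-month lungs, so replicate 1 was above replicate 2 in both. Replicate 3 went opposite ways, as the highest 9-month lung for the members and the lowest for Cdkn1a. A tie of Cdkn1a to the members was not tested. Without replicate 3, 1 of the 7 inhibitors had risen and 1 had fallen at 9 months, where 1108 of all genes were called. Differences of the 7 from control then ran from -1.25 to 2.36. Cdkn2a had a difference of 1.50 ± 0.39 and missed the threshold (adjusted p = 0.0577).

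Markers of other cells differed between the same arrays. The median of 9 monocyte and macrophage markers was -0.08 to 0.10 in controls, 0.89 to 1.11 in 3-month cre lungs and 0.82, 0.94 and 1.78 in the 9-month cre lungs, and 7 of 9 read highest in replicate 3. The median of 6 T cell markers was -0.26 to 0.29, 0.42 to 0.65, and 0.14, 0.19 and 0.71, with 2 of 6 highest in that array. Alveolar macrophage markers (8 genes) had medians of 0.59, 0.79 and 0.76 at 3 months, against -0.43 to 0.38 in controls, and of 0.39, -0.23 and -0.01 at 9 months, with 1 of 8 highest in replicate 3. These markers did not move together. Their differences from control ran from -1.61 to 1.27 at 3 months (7 above 0, 1 below) and from -2.61 to 1.05 at 9 months (4 above, 4 below). In the 3-month cre lungs and 9-month cre replicates 1 and 2 the members had medians of 0.73, 0.86, 0.53, 0.33 and 0.01, so that both lists were lowest in replicate 2, and they parted in replicate 3. Granulocyte precursor markers (8 measured) had medians of -0.27 to 0.19 in controls, 1.65 to 1.71 at 3 months and 3.00, 2.20 and 1.55 at 9 months. At 3 months 7 of 8 were higher without overlap with controls, where 19.6% of all genes were, and 0 of 8 read highest in replicate 3. Of 8 immediate early genes, which respond to handling as well as to stimuli, 7 read highest there, with a median of 1.37 against 0.76 and 0.41 in the other 9-month cre lungs and -0.45 to 0.59 at 3 months. Mature neutrophil markers took the opposite order at 9 months, with medians of 2.37, 2.48 and -0.18. Their control medians were spread widely, at -0.01, -1.41 and 1.37, so that replicate 3 lay within the control range. Of 8 alveolar type 2 and 6 alveolar type 1 markers, 0 read highest in replicate 3, where their medians were -0.37 and -0.42. The part of these cells and of handling in the levels of the proliferation genes was not tested.

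**Figure D4:**
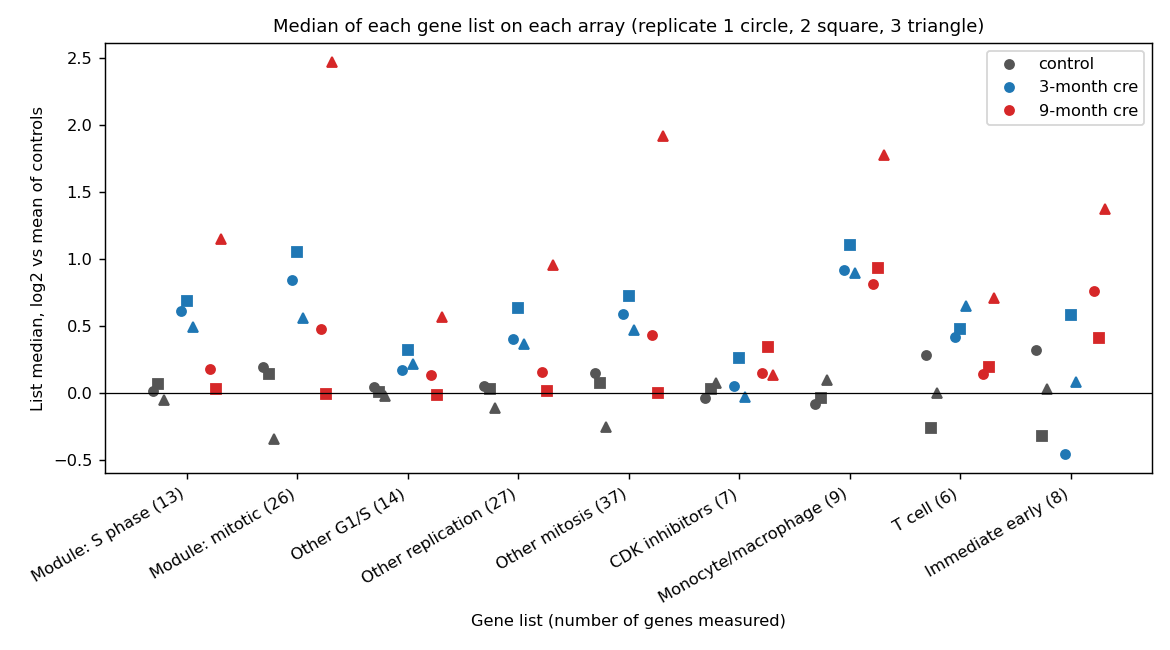
Median log2 difference from the control mean of each gene list (x axis, number of genes measured in brackets) on each array, with controls in grey, 3-month cre in blue and 9-month cre in red. In 9-month cre replicate 3 (red triangle) the mitotic members are at 2.47 and the S-phase members at 1.15, while the inhibitors of cyclin-dependent kinases are at 0.14 and the monocyte and macrophage markers at 1.78.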

How the data were processed

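The deposited scanner files hold spot intensity, per the file headers a background-subtracted processed signal from Agilent Feature Extraction 10.7.3.1, not scaled between arrays. Irregular spots were left out, the spots of a probe averaged, and each log2 intensity scaled by subtracting its array's 75th percentile, taken over 56605 non-control probes. The 37647 probes kept were those well above background throughout 1 group or more. The probe with the highest mean stood for a gene, which gave 16843 genes.

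All 9 arrays were fitted as 3 groups in limma 3.58.1 (R 4.3.3; 6 residual degrees of freedom), with two-sided moderated tests and Benjamini-Hochberg adjustment over all genes. A gene was called at an adjusted p under 0.05, and "rose" or "fell" is written of called genes. The fit was tested on simulated data. Promoter motifs were counted and figures drawn in Python.

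The members and lists were chosen with earlier results of these data known, and no test was made over a list. Level by array was given for the members with the largest and smallest 9-month difference of each role, for Mki67, Top2a, Pcna, Cdk1 and Ccnb1, and for 4 members called without 9-month cre replicate 3 (Mcm6, Tyms, Ccne1 and Bub1b), added after their values were seen. The deposited value table, whose intensity values the authors had brought to a common scale, served as an alternative, beside other background correction, scaling, filters, slide, sex and replicate blocks and leaving out each array. The labels call the samples biological replicates. Samples of different groups with the same replicate number did not deviate together (correlations of -0.236 to 0.045), so the numbers were not taken as pairs.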

Additional observations from a re-analysis of the deposited data

How the results depend on the processing

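Under each alternative run with all 9 arrays in the fit, no member was called, and the median of the members stayed above 0 in all 3 comparisons, at 0.74 to 0.83 (9-month cre minus control), 0.62 to 0.73 (3-month cre minus control) and 0.02 to 0.10 (9-month minus 3-month cre). The fit of the 3-month cre and control arrays alone called 7 members. Leaving out each array in turn gave 0 to 1, 0 to 8 and 0 to 10 called members, with the higher number always from leaving out 9-month cre replicate 3, and medians of 0.17 to 1.21, 0.60 to 0.83 and -0.54 to 0.49. With that array left out and sex as a covariate, 7 members were called between the cre groups.

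Over all genes the calls were less steady, and the cause was not tested. Of 1087 genes called between 9-month cre and control, no filter on dim probes left 489, slide as a block 0, sex as a covariate 0, the 2 groups alone 185, and leaving out an array 158 to 1638. For 3-month cre minus control, with 76, normexp gave 49, no filter 14, a filter on all arrays 45, the slide block 0, the sex covariate 0, the 2 groups alone 389, and leaving out an array 1 to 322. For 9-month minus 3-month cre, with 840, median scaling gave 427, no filter 104, the slide block 0, the sex covariate 234, the 2 groups alone 335, the intensity trend with robust variances 1345, and leaving out an array 0 to 1224. With the replicate number as a block, 317, 42 and 6 genes and 0 members were called, and the numbers share no pairing in the labels.

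Some members changed sign. In 9-month cre minus control, Mcm2 was at -0.0151 with normexp, -0.0368 with median scaling, -0.0089 with the deposited values and -0.14 with the sex covariate, and Cenpa at -0.14 with that covariate. Leaving out an array gave -0.46 to 0.30 for Mcm2, -0.41 to 0.58 for Mcm5, -0.36 to 1.16 for Cdk1, -0.58 to 0.76 for Bub1, -0.57 to 0.37 for Cenpa, -0.0042 to 1.69 for Cenpf, -0.42 to 0.88 for Kif11 and -0.0749 to 1.22 for Nusap1. The lowest value of each came from leaving out 9-month cre replicate 3. Not all of these members were near 0 with all 9 arrays, where Cenpf, Nusap1, Cdk1 and Kif11 were at 1.00, 0.74, 0.64 and 0.44. In 3-month cre minus control Bub1 was at 0.0278 with the slide block, 0.02 with the sex covariate and -0.12 to 0.12 without an array. With 3 arrays a group, the number of arrays limits the precision.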

Other observations

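Genes outside the lists that stood highest in 9-month cre replicate 3 were looked at after their values were seen, and are given as values. Of 41 genes of the histone families H1f, H2ac, H2bc, H3c and H4c, most of which package newly made DNA (H1f0, H1f8 and H1f10, linker histones not tied to replication, were left out), 31 read highest on that array, where 17% of all genes did. In 3-month cre lungs 32 of the 41 had a mean above control, where 57.6% of all genes did. By limma 5 of the 41 had risen at 9 months, where 3.65% of all genes rose, and 0 at 3 months. With slide as a block or sex as a covariate 0 were called at either time, and 0 of all genes. The 5 were H2ac1, H2ac10, H2ac15, H2ac19 and H2ac20. They read alike, at 4.72 to 5.04 in 9-month cre replicates 1 and 2 and 5.31 to 5.68 in replicate 3. Whether their probes tell these genes apart was not tested. Of the H2bc genes, H2bc7, H2bc15 and H2bc18 read highest in replicate 3. H2bc1, H2bc3, H2bc4, H2bc6, H2bc14, H2bc21 and H2bc23 did not, and H2bc21 was lowest there, at -0.34. H3c11, an H3 gene, read -5.23, -5.38 and -5.52 in controls, -5.19, -5.23 and -4.88 in 3-month cre lungs, and -5.24, -5.12 and -2.63 in 9-month cre lungs. H1f5, a linker histone gene, was at 0.83 in 9-month cre replicate 3 and at -1.07 or lower in the other 8 lungs.

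Ranked by the gap between that array and the next highest, the first 40 genes were of several kinds. The largest gaps were 4.6 for Prnd, 4.5 for Pisd-ps2, 4.3 for Otog and 3.5 for Theg, none of them a cytokine or cell cycle gene. The 40 also held cytokine and chemokine genes. The gap was 3.04 for Il6, 2.67 for Il17a, 2.31 for Il10, 2.28 for Cxcl10, 2.03 for Cxcl9 and 2.02 for Ccl4. Foxm1 was the 1 member among these 40, at rank 24 with a gap of 2.03. Of the other cell cycle lists, Chaf1a, a histone chaperone subunit of replication, had a gap of 2.09, Ncapg, a condensin subunit, 1.97, Kif22, a mitotic kinesin, 1.82 and Ttk, a checkpoint kinase, 1.81. Whether these genes and the proliferation genes share a source in that lung was not tested.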
